A study of Mus musculus with 9 samples.

Results

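Solute carrier genes encode the membrane proteins that move ions, metals, sugars, amino acids, vitamins and organic ions across the plasma membrane and organelle membranes. Transcript levels of 104 such genes were compared in 3 structures of the embryonic mouse kidney. They were chosen as the probe sets with exactly 1 platform gene symbol of the form Slc, number, letter, number, without the Slc25 and Slc35 families (42 genes that otherwise passed) and without the erythrocyte anion exchanger Slc4a1. A probe set also had to exceed the median of its own array in at least 3 of the 9 arrays, and of several probe sets the one with the highest mean stood for the gene. Of 202 matching genes on the array, with 301 probe sets, 104 genes with 132 probe sets passed and 98 genes did not. The members were thus selected on their own intensity values. The 11 genes that passed in exactly 3 arrays had a median of mean intensity of 110.4, and the 13 genes that missed the rule with 2 arrays had 94.91. Of the members, 63 exceeded the median in all 9 arrays. Slc7a3, Slc16a6 and Slc45a3 passed through their renal vesicle arrays alone, and Slc22a18, Slc39a4, Slc44a3 and Slc44a4 through their collecting duct arrays alone. These 7 genes had to differ, and their differences are given as description. Slc2a2, Slc7a9 and Slc38a5 came close to this, since each passed through the 3 arrays of its highest structure and 1 array of another. The rule thus also favoured their differences, and their adjusted p values are to be read with that limit.

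The structures were the renal vesicle, which is the earliest epithelium of a nephron, the folded s-shaped body that it grows into, and the collecting duct, the branching epithelium that derives from the ureteric bud and served as the submitters' reference. All came from wild-type embryos of strain 129 and unknown sex at E14.5, which is Theiler stage 22, and each structure was measured on 3 arrays. Nephron samples pooled 20 structures each, while the pool size of every collecting duct sample was 1. RNA went through 2 rounds of T7 amplification, so very small inputs were amplified before measurement, and no agent or engineered allele was used. Values below are deposited Affymetrix intensities, given for replicates 1, 2 and 3 in that order. Log2 differences and folds come from quantile-normalized log2(intensity + 26), a scale that understates the folds of dim genes. A difference with an adjusted p under 0.05 (limma, Benjamini-Hochberg over all 7998 genes tested) counts as a change, and SE is in log2 units. Signed differences are those of the renal vesicle or the s-shaped body minus the collecting duct, or of the s-shaped body minus the renal vesicle.

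In the mature kidney, solute carriers of the proximal tubule brush border reclaim filtered sugars, amino acids and phosphate, those of later segments reclaim salt, and those of every cell supply nutrients and trace metals. Many work as pairs, such as a light chain that transports amino acids with a heavy chain that carries it to the membrane, or depend on the sodium gradient of the sodium pump. The nephron stages studied here do not yet filter urine.

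Marker genes did not match the name of every structure. Of a list of renal vesicle and early nephron genes (Lhx1, Pax8, Wnt4, Jag1, Dll1, Hes5 and Ccnd1, with Fgf8 below the intensity filter), summed intensities were 22242 to 23451 in the renal vesicle and 2982 to 3584 in the collecting duct, and the arrays labelled s-shaped body held 3951 to 4267. On this sum the s-shaped body arrays lay near the collecting duct, where Wnt4 alone read 1148, 1425 and 1829 against 21.5, 84.1 and 75.9 in s-shaped bodies. Gene by gene, 5 of the 7 were higher in the s-shaped body than in the collecting duct and 1 was lower, with a median log2 difference of 0.905. All 7 were lower than in the renal vesicle. Every value given below for the s-shaped body is that of arrays so labelled. In these arrays, summed intensities of tested markers were 42039 to 50262 for podocytes, 7575 to 8774 for endothelium, 20532 to 23253 for erythroid cells (3 of 8 listed) and 7257 to 9276 for stroma. Proximal tubule markers (4 of 8 listed) summed to 990, 403 and 665 in s-shaped bodies, 857 to 1285 in the renal vesicle and 891 to 1142 in the collecting duct. All other arrays had 320 to 650 for endothelium and 270 to 1916 for stroma, and podocyte sums were 501 to 587 in the collecting duct. The macrophage list rested on Csf1r, at 2696 to 3115 in s-shaped bodies and 142 to 398 elsewhere. Its other 7 markers lay below the intensity filter. Cdh1, the epithelial cadherin, read 78.3, 36.5 and 35.2 in s-shaped bodies, 755, 1111 and 728 in the renal vesicle and 3503, 3725 and 4229 in the collecting duct. Collecting duct arrays held urothelial markers at 2497 to 3925 against 236 to 432 elsewhere. Listed collecting duct genes (9 of 10 tested) summed to 30128 to 44641 in these arrays. Their sums were 2608 to 13723 in renal vesicles and 1361 to 1380 in s-shaped bodies. Renal vesicle arrays had 5 of these genes lower and 2 higher, as changes against the collecting duct. Calb1 and Wnt11, ureteric bud genes on this list, went against the sum. Calb1 was low in the collecting duct, at 54.6, 70.9 and 72.5, but read 6589, 9324 and 341 in the renal vesicle. Wnt11 read 104, 92.6 and 124 in the collecting duct and 431, 449 and 178 in the renal vesicle. Renal vesicle replicate 3 stood apart with a podocyte sum of 8841 against 2149 and 2661 in its fellows, and its erythroid sum was 387 against 1479 and 2702. Collecting duct replicate 2 had an erythroid sum of 2354 against 34 and 50. The part of these cells in the results below was not tested, and in such bulk samples fewer cells of a type cannot be told apart from less RNA per cell. Across member genes, which are not independent replicates, pairs of arrays correlated at 0.924 to 0.979 when both held the same structure and at 0.717 to 0.824 when they did not.

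Between the renal vesicle and the collecting duct, 33 of the 104 genes changed (31.7%), close to the 31.5% of all genes tested; 11 were higher and 22 lower in the renal vesicle, against 15.6% and 15.9% of all genes. Against the collecting duct the s-shaped body had 42 changes (40.4%, against 32.8%), 16 higher and 26 lower, where all genes gave 16.9% and 15.9%. Between the s-shaped body and the renal vesicle 39 changed (37.5%, against 36.3%), 19 higher and 20 lower, where all genes gave 18.5% and 17.8%. Arrays of the compared groups did not overlap for 50, 51 and 53 members in these comparisons, or 48.1%, 49% and 51%, and the backgrounds were 43.3%, 43.9% and 52.9%. The median log2 differences of the members were -0.09, -0.03 and 0.06, and those of all genes 0.01, -0.03 and -0.03. With arrays centred on their medians instead, the first comparison gave 16 higher and 19 lower members, with a median over all genes of 0.11. Without the 7 genes whose difference the rule fixed, 8 of 97 members were higher and 18 lower in the renal vesicle, where 15.3% and 15.2% of all genes chosen the same way were. The s-shaped body had 16 above and 22 below the collecting duct (15.5% and 15.2%) and 19 above and 17 below the renal vesicle (17.3% and 17.6%). At an adjusted p under 0.01 the 3 comparisons had 24, 29 and 24 of all 104 members, against 19.5%, 21.8% and 24.1% of all genes. The comparisons share arrays and are not independent of each other. In all, 59 members changed in at least 1 comparison and 45 in none. The matching shares of all genes were not worked out, so these counts are description only. The moderated F test over the 3 structures passed 57 members (54.8%, against 49.6% of all genes).

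Placed by structure, 15 members were higher in the collecting duct than in each nephron structure (14.4%, against 8.25% of all genes), 12 were higher in the s-shaped body than in the others (11.5%, against 10.8%) and 7 in the renal vesicle (6.73%, against 8.23%). Another 12 were lower in the s-shaped body than in the others (11.5%, against 6.74%), 7 were lower in the renal vesicle (6.73%, against 6.3%) and 2 in the collecting duct (1.92%, against 6.11%). Some genes stand on a highest and a lowest list, since all 3 of their levels differed. Of the collecting duct genes 4, and of the renal vesicle genes 3, had entered through that structure alone. Without them 11 members (11.3%, against 7.38% of all genes chosen the same way) were highest in the collecting duct and 4 (4.12%, against 7.82%) in the renal vesicle. The other lists kept their members, and their backgrounds were then 9.32% (s-shaped body highest), 6.83% (s-shaped body lowest), 6.53% (renal vesicle lowest) and 6.07% (collecting duct lowest). These small counts moved with the processing. The renal vesicle list held 14 genes with array weights, 11 with median centring and 3 with a filter of 6 arrays, and the collecting duct list held 10 with that filter. With array weights 12 were lowest in the renal vesicle and 4 in the collecting duct. The list of the s-shaped body highest held 5 without s-shaped body replicate 3. That of the s-shaped body lowest held 7 without renal vesicle replicate 2. That of the renal vesicle lowest held 4 without renal vesicle replicate 1, s-shaped body replicate 1 or s-shaped body replicate 2. That of the collecting duct lowest held 1 without renal vesicle replicate 1 or 2 or collecting duct replicate 2, and 5 without collecting duct replicate 1. With renal vesicle replicate 3 and collecting duct replicate 2 both omitted, 28 instead of 34 members were highest in 1 structure.

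**Figure D1:**
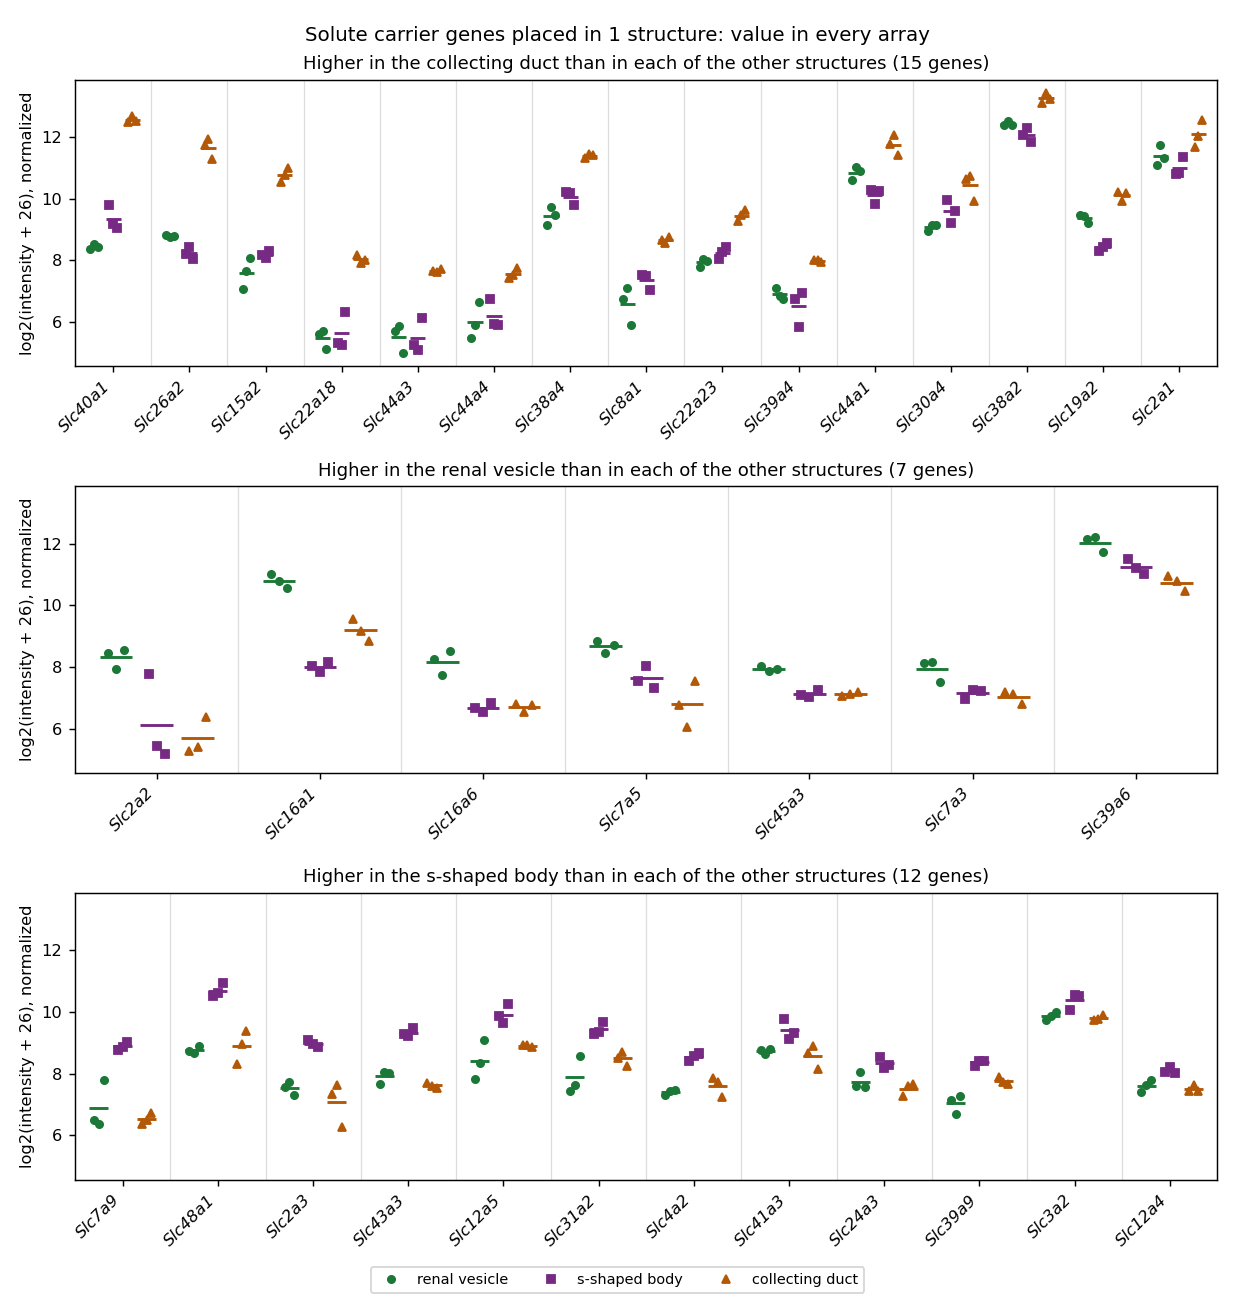
Normalized log2(intensity + 26) of the 34 genes that were highest in 1 structure by both of its tests, one point per array and a line at each mean of 3 arrays. Slc40a1, Slc26a2 and Slc15a2 stand furthest above the nephron structures in the collecting duct, and s-shaped body replicate 1 lies far above its fellows for Slc2a2.

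Promoter sequences are shown for a member with a large lesser difference in each of 5 patterns, among those with a sequence window. A reader can thus set the sequence beside the pattern. The member shown did not always have the largest lesser difference of its pattern. Among genes highest in the collecting duct, it was -3.22 for Slc40a1 and -2.85 for Slc26a2, which are not shown, and -2.59 for Slc15a2. They are the 250 bases before the most upstream RefSeq start on GRCm38.p6, and capitals mark matches, on either strand, to any of 11 motifs searched. The GC box (GGGCGG), the CCAAT box, the TATA box (TATAAA), the hypoxia response core (ACGTG), the E-box (CACGTG, which contains that core), the GATA core (AGATAA), the AP-1 core (TGANTCA), the forkhead core (TGTTTAC), the amino acid response element (TGATGNAA), the HNF1 palindrome and the part of it written GTTAAT were searched. Slc15a2 (highest in the collecting duct, chr16:36784963-36785212, minus strand) held ACGTG at position -42, AGATAA at -95 and a reverse GC box at -238. Slc2a2 (highest in the renal vesicle, chr3:28697653-28697902, plus strand) held reverse CCAAT boxes at -77 and -56. Slc7a9 (highest in the s-shaped body, chr7:35448842-35449091, plus strand) held AGATAA at -205 and reversed at -166. Slc44a2 (lowest in the renal vesicle, chr9:21320469-21320718, plus strand) held a GC box at -34. Slc39a8 (lowest in the s-shaped body, chr3:135825029-135825278, plus strand) held none of the motifs.
Slc15a2: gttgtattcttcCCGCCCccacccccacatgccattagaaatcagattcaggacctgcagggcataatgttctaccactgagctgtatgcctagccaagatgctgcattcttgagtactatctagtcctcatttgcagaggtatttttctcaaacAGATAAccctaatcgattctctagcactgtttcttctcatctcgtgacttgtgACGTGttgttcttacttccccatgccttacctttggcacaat
Slc2a2: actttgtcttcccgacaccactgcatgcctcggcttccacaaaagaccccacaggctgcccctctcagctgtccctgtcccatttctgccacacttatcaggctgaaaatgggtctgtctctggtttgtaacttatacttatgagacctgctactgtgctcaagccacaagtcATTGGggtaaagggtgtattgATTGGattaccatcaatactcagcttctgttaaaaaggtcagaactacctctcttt
Slc7a9: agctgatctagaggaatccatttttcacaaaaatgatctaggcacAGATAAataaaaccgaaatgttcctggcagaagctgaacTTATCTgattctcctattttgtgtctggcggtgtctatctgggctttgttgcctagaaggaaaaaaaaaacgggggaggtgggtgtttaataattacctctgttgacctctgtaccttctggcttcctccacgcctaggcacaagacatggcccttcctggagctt
Slc44a2: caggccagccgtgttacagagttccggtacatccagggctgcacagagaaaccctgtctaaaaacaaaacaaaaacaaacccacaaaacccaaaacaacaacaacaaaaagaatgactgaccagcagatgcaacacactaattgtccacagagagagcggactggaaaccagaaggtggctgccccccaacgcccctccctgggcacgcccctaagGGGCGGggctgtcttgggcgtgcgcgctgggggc
Slc39a8: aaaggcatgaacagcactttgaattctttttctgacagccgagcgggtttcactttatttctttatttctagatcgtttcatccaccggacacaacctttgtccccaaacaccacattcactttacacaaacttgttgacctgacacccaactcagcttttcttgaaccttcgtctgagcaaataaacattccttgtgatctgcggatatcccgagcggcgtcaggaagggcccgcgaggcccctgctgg
A match of so few letters is a description of the sequence and not a binding site.

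Promoter windows were found for 74 of the 104 members, of which 20 had several. A GC box stood in 49 of them (66.2%), in 62.3% of the 6506 tested genes with a window and in 33% of all 27025 promoters. By pattern it stood in 10 of the 12 windows of genes highest in the collecting duct, 3 of 9 highest in the s-shaped body and 2 of 3 highest in the renal vesicle. It stood in 8 of 9 lowest in the s-shaped body, 2 of 4 lowest in the renal vesicle and 1 of 2 lowest in the collecting duct. The CCAAT box stood in 32.4% of members and 36.3% of tested genes, the hypoxia letters ACGTG in 24.3% and 22.1%, AGATAA in 6.76% and 5.32%, the TATA letters TATAAA in 2.7% and 6.15%, CACGTG in 10.8% and 8.68%, and TGANTCA in 4.05% and 4.15%. TGATGNAA stood in 1.35% and 1.78%, GTTAAT in 2.7% and 3.55%, TGTTTAC in 0% and 2.03%, and the full HNF1 motif in no member and no tested gene. The median GC content of the windows was 61.4% in members, 60.4% in tested genes and 52% in all promoters. The share with a GC box was thus far above that of all promoters and near that of the tested genes.

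Carriers of iron, sulfate and peptides were among the members with the largest differences from the collecting duct. Slc40a1 encodes ferroportin, the iron exporter of mammalian cells. Its intensities were 5157, 6149 and 6011 in the collecting duct, 281, 329 and 301 in the renal vesicle and 862, 566 and 519.5 in the s-shaped body. All collecting duct arrays were far above all nephron arrays, and the nephron groups did not overlap each other either. The gene was 17.4-fold lower in the renal vesicle, a log2 difference of -4.12 (SE 0.20, adjusted p = 2.5e-08) from the collecting duct, and 9.31-fold lower in the s-shaped body, -3.22 (SE 0.20, adjusted p = 1.3e-07). The s-shaped body was also above the renal vesicle, by 0.90 (SE 0.20, adjusted p = 0.0034). That last difference was 0.56 (adjusted p = 0.086), no change, by a second probe set, which kept the others.

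For iron, copper, magnesium and heme 8 genes were tested, out of 9 on the array. The s-shaped body had 3 of them above and 2 below the collecting duct, where all genes gave 16.9% and 15.9%. It had 4 above and 1 below the renal vesicle, where all genes gave 18.5% and 17.8%. Slc48a1, the lysosomal heme transporter known from red cell recycling in macrophages, read 1437, 1531 and 1883 in s-shaped bodies, 373, 374 and 432 in the renal vesicle and 296, 477 and 622 in the collecting duct. The s-shaped body arrays were all above the others, which overlapped each other. The log2 difference of the s-shaped body was 1.8 (SE 0.24, adjusted p = 9.7e-05) from the collecting duct and 1.91 (SE 0.24, adjusted p = 8e-05) from the renal vesicle. It stood beside the high erythroid sum and Csf1r level of the same arrays, whose part in the result was not tested.

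A copper carrier was also highest in the s-shaped body. Slc31a2, a vesicular relative of the copper importer, read 609, 648 and 809 there, 351, 401 and 285 in the collecting duct and 130.3, 163 and 339.7 in the renal vesicle, where replicate 3 was the highest. It differed from the collecting duct by 0.95 (SE 0.27, adjusted p = 0.017) and from the renal vesicle by 1.56 (SE 0.27, adjusted p = 0.00078). The first of these calls was lost without s-shaped body replicate 3 (log2 difference 0.83, adjusted p = 0.072). The lower level of the renal vesicle against the collecting duct, -0.61 (SE 0.27, adjusted p = 0.11), became a change without renal vesicle replicate 3 (log2 difference -0.96, adjusted p = 0.0055). The copper importer itself, Slc31a1, read 356, 407 and 541 in the renal vesicle, 461, 538 and 449 in the s-shaped body and 373, 436 and 374 in the collecting duct, with no change in any comparison. Slc11a2, which takes up ferrous iron, had no change by the probe set used, at 493, 368 and 535 in the renal vesicle and 268, 348 and 361 in the collecting duct. A second probe set of Slc11a2 gave -0.57 for the renal vesicle against the collecting duct and 0.70 between the nephron structures, both changes, so that its direction depends on the probe set.

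The 2 magnesium carriers ran in opposite directions. Slc41a3, a mitochondrial magnesium exporter, read 867, 547 and 626 in the s-shaped body against 385, 365 and 406 in the renal vesicle and 394, 451 and 265 in the collecting duct. The s-shaped body arrays did not overlap the others, with differences of 0.85 (SE 0.22, adjusted p = 0.012) from the collecting duct and 0.67 (SE 0.22, adjusted p = 0.034) from the renal vesicle. The former was lost without s-shaped body replicate 1 (log2 difference 0.66, adjusted p = 0.058) and the latter without renal vesicle replicate 1, 2 or 3, or s-shaped body replicate 1 or 3 (log2 difference 0.48 to 0.72, adjusted p = 0.053 to 0.14). Slc41a1, a plasma membrane magnesium carrier named here after its values were seen, was lowest in the s-shaped body, at 309, 301 and 357 against 419, 509 and 367 in the renal vesicle and 533, 632 and 597 in the collecting duct. Its differences were -0.86 (SE 0.17, adjusted p = 0.0019) from the collecting duct and -0.48 (SE 0.17, adjusted p = 0.044) from the renal vesicle. These 2 calls were not checked by leaving out arrays.

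Of the peptide and organic ion carriers 10 of 28 on the array were tested, 2 of them lower in each nephron structure than in the collecting duct besides Slc22a18, whose difference the rule fixed. Of all genes that did not enter through 1 structure alone, 7.38% were highest in the collecting duct. Slc15a2 encodes PEPT2, the high-affinity proton-coupled carrier of dipeptides and tripeptides. Intensities were 1537, 1715 and 1925 in the collecting duct, 93, 166 and 232 in the renal vesicle and 269, 256 and 303 in the s-shaped body. Every collecting duct array lay far above every nephron array. Within the nephron the renal vesicle lay below the s-shaped body without a change, 0.58 (SE 0.24, adjusted p = 0.075), which became one without renal vesicle replicate 3 (log2 difference 0.82, adjusted p = 0.013). The level was 9.04-fold lower in the renal vesicle (-3.18, SE 0.24, adjusted p = 1e-06) and 6.04-fold lower in the s-shaped body (-2.59, SE 0.24, adjusted p = 3.1e-06).

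Slc22a18, a carrier-like gene of the imprinted region that also holds Cdkn1c, was dim in the nephron, at 18.7, 24.7 and 8 in the renal vesicle and 12.8, 12.4 and 58.8 in the s-shaped body, and read 265, 219.6 and 243 in the collecting duct. It entered the set through its collecting duct arrays, and its log2 differences of -2.55 and -2.39 are given as description. Slc22a23, a relative without a settled substrate, read 615, 688 and 733 in the collecting duct, 174, 225 and 214 in the renal vesicle and 243, 289 and 336 in the s-shaped body. No nephron array reached a collecting duct array, with differences of -1.52 (SE 0.18, adjusted p = 4.3e-05) and -1.21 (SE 0.18, adjusted p = 0.00018) for the renal vesicle and then the s-shaped body.

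Slc47a1 encodes MATE1, which secretes organic cations across the brush border of mature tubules. It read 335, 332 and 449 in the renal vesicle, 269, 211 and 209.5 in the collecting duct and 330.4, 43.3 and 76.2 in the s-shaped body. Replicate 1 of the s-shaped body was at the renal vesicle level while replicates 2 and 3 were below every other array. By the fit the s-shaped body was below the renal vesicle, -1.63 (SE 0.45, adjusted p = 0.014), a call lost without s-shaped body replicate 2 or 3 (log2 difference -1.40 to -1.16, adjusted p = 0.062 to 0.063). Without s-shaped body replicate 1 the difference was -2.33 with an adjusted p of 6.5e-05. With all arrays the differences from the collecting duct were 0.74 (SE 0.45, adjusted p = 0.24) for the renal vesicle and -0.89 (SE 0.45, adjusted p = 0.16) for the s-shaped body. Without that replicate they became changes of 0.74 (adjusted p = 0.023) and -1.58 (adjusted p = 0.00052). The same replicate was bright for Slc2a2, Slc27a2 and Slc34a1 and for Cltrn, a brush border partner of amino acid carriers, at 224, 16.4 and 39 in the s-shaped body. The organic anion carriers Slc22a6 and Slc22a8 did not pass the intensity rule, with intensities of 6.5 to 45.4 and 29.3 to 77.5 over the 9 arrays.

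Slc26a2, a sulfate carrier needed for sulfated proteoglycans, was one of 7 tested anion carriers and chloride cotransporters out of 17 on the array. It read 3402, 3759 and 2383 in the collecting duct, 408, 393 and 403 in the renal vesicle and 276, 329.8 and 252 in the s-shaped body. The collecting duct stood far above both nephron structures, which were also apart from each other. The gene was 7.21-fold lower in the renal vesicle, -2.85 (SE 0.19, adjusted p = 4.4e-07), and 10.7-fold lower in the s-shaped body, -3.42 (SE 0.19, adjusted p = 5.8e-08). The small step between the nephron structures, -0.57 (SE 0.19, adjusted p = 0.034), was lost without renal vesicle replicate 1, 2 or 3, or s-shaped body replicate 1 or 3 (log2 difference -0.59 to -0.49, adjusted p = 0.067 to 0.12).

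The cation-chloride cotransporters of the Slc12 family, which set cell chloride and volume, did not share a pattern. Slc12a2, the sodium-potassium-chloride importer NKCC1, read 3636, 3077 and 4007 in the renal vesicle, 5685, 4793 and 5441 in the s-shaped body and 5157, 6283 and 3629.8 in the collecting duct. The s-shaped body lay above the renal vesicle without overlap, 0.63 (SE 0.20, adjusted p = 0.027), while the collecting duct overlapped both. That call was lost without renal vesicle replicate 1 or 2, or s-shaped body replicate 1 or 3 (log2 difference 0.54 to 0.63, adjusted p = 0.067 to 0.11). The difference of the renal vesicle from the collecting duct, -0.57 (SE 0.20, adjusted p = 0.049), was lost without renal vesicle replicate 1, 2 or 3, or s-shaped body replicate 1, 2 or 3, or collecting duct replicate 1 or 2 (log2 difference -0.64 to -0.38, adjusted p = 0.053 to 0.2). It was -0.30 (adjusted p = 0.31) with median centring, and the difference between the nephron structures then 0.42 (adjusted p = 0.15). A second probe set gave 0.95 for the latter, a change.

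Potassium-chloride exporters of the same family went both ways in the s-shaped body. Slc12a5 (KCC2), best known from neurons, read 917, 799 and 1177 there, 181, 290.1 and 503 in the renal vesicle and 472, 467 and 441 in the collecting duct, and no other array reached the s-shaped body. It was higher than in the collecting duct by 1.01 (SE 0.27, adjusted p = 0.013) and than in the renal vesicle by 1.49 (SE 0.27, adjusted p = 0.0012), the former lost without s-shaped body replicate 3 (log2 difference 0.85, adjusted p = 0.063). In contrast Slc12a7 (KCC4) read 536, 526 and 560.5 in the s-shaped body against 812, 971 and 855 in the renal vesicle and 938, 940.5 and 1023 in the collecting duct. All of its s-shaped body arrays were the lowest, with differences of -0.83 (SE 0.16, adjusted p = 0.0013) and -0.75 (SE 0.16, adjusted p = 0.0027) from the collecting duct and the renal vesicle.

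Slc12a4 (KCC1), the widely expressed member, was modestly higher in the s-shaped body, at 251, 279 and 246 against 124, 162 and 184 in the renal vesicle and 147, 179.6 and 162 in the collecting duct. Its differences were 0.60 (SE 0.18, adjusted p = 0.022) from the collecting duct, lost without s-shaped body replicate 1 or 2, or collecting duct replicate 1 (log2 difference 0.54 to 0.61, adjusted p = 0.052 to 0.085), and 0.49 (SE 0.18, adjusted p = 0.047) from the renal vesicle, lost without renal vesicle replicate 1 or 2, or s-shaped body replicate 1, 2 or 3, or collecting duct replicate 1 or 2 (log2 difference 0.39 to 0.54, adjusted p = 0.052 to 0.17). The cotransporters that reclaim salt in the thick ascending limb and the distal tubule, Slc12a1 and Slc12a3, did not pass the intensity rule, at 63.3 to 117.1 and 9.73 to 96.1. Slc4a2, the chloride-bicarbonate exchanger AE2, was 1 of 2 tested bicarbonate carriers out of 9 on the array and read 324, 366 and 390.4 in s-shaped bodies, 116, 139 and 142 in the renal vesicle and 205, 196 and 143 in the collecting duct. The s-shaped body arrays were above all others, by 0.93 (SE 0.19, adjusted p = 0.0024) against the collecting duct and 1.14 (SE 0.19, adjusted p = 0.00064) against the renal vesicle.

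**Figure D2:**
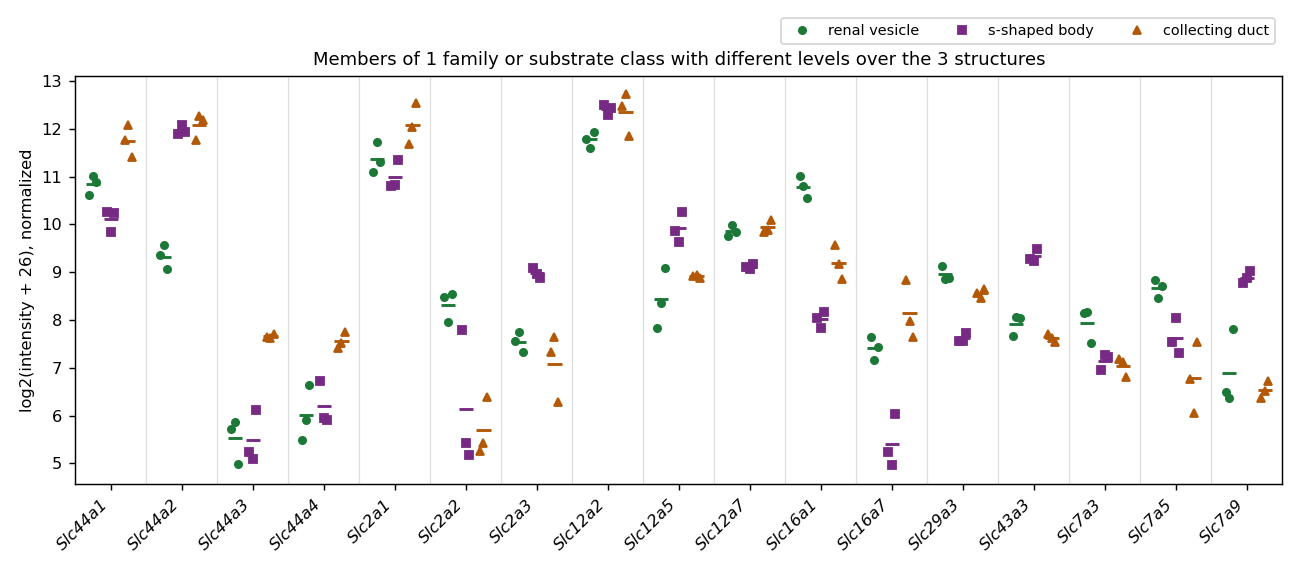
Normalized log2(intensity + 26) of related members over the 3 structures, one point per array and a line at each mean of 3 arrays. Slc2a1, Slc2a2 and Slc2a3 are each highest in another structure, and Slc12a5 and Slc12a7 move in opposite directions in the s-shaped body.

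Of the 12 sugar carriers tested, out of 20 on the array, 3 facilitative glucose transporters were each highest in a different structure. Slc2a1 (GLUT1), the basal glucose importer of most growing cells, read 3261, 4076 and 6206 in the collecting duct, 2233, 3395 and 2524 in the renal vesicle and 1756, 1761 and 2515 in the s-shaped body. The collecting duct lay above the s-shaped body without overlap, -1.09 (SE 0.24, adjusted p = 0.004), and overlapped the renal vesicle. The difference of the renal vesicle from the collecting duct, -0.71 (SE 0.24, adjusted p = 0.043), was lost without renal vesicle replicate 1 or 3, or s-shaped body replicate 1 or 2, or collecting duct replicate 2 or 3 (log2 difference -0.74 to -0.47, adjusted p = 0.055 to 0.16). Both other passing probe sets of the gene gave changes in the same direction, -0.86 and -0.67 for the renal vesicle and -1.21 and -1.0 for the s-shaped body against the collecting duct.

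Slc2a2 (GLUT2), a low-affinity glucose transporter known from hepatocytes, pancreatic beta cells and the basolateral side of the proximal tubule, was highest in the renal vesicle, and its promoter above carries a pair of reverse CCAAT boxes. It read 306, 209.6 and 330.4 there, 201, 17.6 and 11.3 in the s-shaped body and 11.4, 20.6 and 68.3 in the collecting duct. All renal vesicle arrays were the highest, but s-shaped body replicate 1 came close to them while its fellows were at the collecting duct level. The renal vesicle was 6.2-fold higher than the collecting duct, 2.63 (SE 0.57, adjusted p = 0.0038), and the s-shaped body 4.57-fold lower than the renal vesicle, -2.19 (SE 0.57, adjusted p = 0.0095). Both calls held whichever array was left out, with the same genes kept in the fit. The gene had passed the intensity rule through its renal vesicle arrays and s-shaped body replicate 1 alone, so the rule favoured these differences.

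Slc2a3 (GLUT3), a high-affinity glucose importer, was highest in the s-shaped body, at 532, 489.9 and 463 against 144, 178 and 126 in the renal vesicle and 132, 181 and 61 in the collecting duct. No other array came near its s-shaped body values, with differences of 1.89 (SE 0.29, adjusted p = 3e-04) and 1.44 (SE 0.29, adjusted p = 0.0023) from the collecting duct and the renal vesicle. A second probe set gave 1.28 and 1.46 for these differences, both changes. Endothelial, erythroid and stromal marker sums were high in the same arrays, and their part in the result was not tested.

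Among the other sugar carriers, Slc37a4, which moves glucose 6-phosphate into the endoplasmic reticulum, read 872, 795 and 754 in the renal vesicle, 564, 739 and 797 in the s-shaped body and 574, 535 and 345 in the collecting duct. The renal vesicle was higher than the collecting duct, 0.80 (SE 0.21, adjusted p = 0.011), and the s-shaped body lay between them without a change from either. Its difference from the collecting duct, 0.52 (SE 0.21, adjusted p = 0.074), became a change without collecting duct replicate 1 (log2 difference 0.63, adjusted p = 0.047). Slc45a3, a proton-coupled sugar carrier, read 215, 196 and 205 in the renal vesicle, 113, 104 and 136 in the s-shaped body and 104, 121 and 138 in the collecting duct. It passed the rule through its renal vesicle arrays alone. Slc5a2 (SGLT2), which reclaims filtered glucose in the proximal tubule, was at 189, 235 and 212 in the renal vesicle, 219, 154 and 159 in the s-shaped body and 143, 239.6 and 288 in the collecting duct, with no change. Its intestinal relative Slc5a1 did not pass, at 42.2 to 111.6 over the 9 arrays.

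Both tested carriers of lactate and pyruvate, out of 8 monocarboxylate and dicarboxylate carriers on the array, were lower in the s-shaped body than in the other structures. Of all genes, 6.74% were lowest there. Slc16a6 and Slc16a11 of the same family were classed apart. In the s-shaped body Slc16a6 differed by -0.03 (adjusted p = 0.94) from the collecting duct, no change. Slc16a11 differed there by -0.48 (adjusted p = 0.095) from the renal vesicle, also no change. Slc16a1 (MCT1), which carries lactate and pyruvate in both directions, read 2105, 1784 and 1466 in the renal vesicle, 246, 206 and 276 in the s-shaped body and 769.8, 557 and 435 in the collecting duct. The groups did not overlap in any comparison, with the renal vesicle highest and the s-shaped body lowest. The s-shaped body was 6.84-fold lower than the renal vesicle, -2.77 (SE 0.21, adjusted p = 1.5e-06), and lower than the collecting duct, -1.19 (SE 0.21, adjusted p = 0.00074). The renal vesicle was 3.0-fold higher than the collecting duct, 1.59 (SE 0.21, adjusted p = 0.00011).

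Slc16a7 (MCT2), the high-affinity pyruvate carrier, was likewise dim in the s-shaped body, at 11, 5 and 43.3, and read 154, 110.0 and 138 in the renal vesicle and 442, 235 and 189 in the collecting duct. Its s-shaped body arrays were all the lowest, -2.74 (SE 0.34, adjusted p = 4.8e-05) against the collecting duct and -2.0 (SE 0.34, adjusted p = 0.00073) against the renal vesicle. In contrast to Slc16a1, its renal vesicle arrays lay below the collecting duct without overlap. That difference fell short of a change, -0.74 (SE 0.34, adjusted p = 0.12), and became one without collecting duct replicate 3 (log2 difference -1.01, adjusted p = 0.049). The lactate exporter Slc16a3 (MCT4) did not pass the rule, at 16.2 to 105.7. Of the glycoproteins that carry these transporters to the membrane, embigin (Emb) read 1952, 1588 and 1303 in the collecting duct, 610.2, 772 and 592 in the renal vesicle and 299, 274 and 283 in the s-shaped body. Its 3 groups ran in the same order as those of Slc16a7, with -2.43 (SE 0.17, adjusted p = 4.4e-07) in the s-shaped body against the collecting duct and -1.22 (SE 0.17, adjusted p = 0.00019) against the renal vesicle. Basigin (Bsg), the partner of Slc16a1, was at 285, 288 and 260.0, 353, 420.2 and 369 and 287, 290.1 and 324 in the renal vesicle, s-shaped body and collecting duct, with no change.

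Slc16a6, a carrier of ketone bodies, read 256, 176 and 322 in the renal vesicle, 74.7, 66.7 and 95 in the s-shaped body and 82.8, 74.3 and 96.8 in the collecting duct. It passed the rule through the renal vesicle alone, and its log2 differences of 1.46 from the collecting duct and -1.49 for the s-shaped body against the renal vesicle are given as description. Slc16a11, a relative studied for its link to lipid metabolism, read 230.5, 160.1 and 160.0 in the s-shaped body and 227, 326 and 369 in the collecting duct. Its difference of -0.70 (SE 0.21, adjusted p = 0.021) was lost without s-shaped body replicate 2 or 3, or collecting duct replicate 2 or 3 (log2 difference -0.67 to -0.57, adjusted p = 0.062 to 0.081).

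Of 17 tested amino acid carriers, out of 33 on the array, Slc7a3 entered through the renal vesicle alone. Of the other 16, the renal vesicle had 1 above and 2 below the collecting duct, where all genes chosen the same way gave 15.3% and 15.2%. The s-shaped body had 3 above and 4 below the collecting duct (15.5% and 15.2%), and 3 above and 3 below the renal vesicle (17.3% and 17.6%). The Slc38 family carries neutral amino acids with sodium. Slc38a2 (SNAT2), which responds to amino acid shortage, read 7352, 10398 and 10883 in the collecting duct, 5689, 6123 and 5644 in the renal vesicle and 4199, 4819 and 3530.2 in the s-shaped body. The collecting duct was highest in all arrays, with differences of -0.82 (SE 0.15, adjusted p = 0.0011) for the renal vesicle and -1.19 (SE 0.15, adjusted p = 4.3e-05) for the s-shaped body. Slc38a4 (SNAT4), an imprinted member, read 2603, 2740.4 and 2601 in the collecting duct, 526, 802 and 646 in the renal vesicle and 1164, 1139.5 and 864 in the s-shaped body. All 3 groups were apart, and the renal vesicle was 3.85-fold below the collecting duct, -1.95 (SE 0.19, adjusted p = 8.8e-06), and the s-shaped body 2.53-fold below it, -1.34 (SE 0.19, adjusted p = 0.00014). The step between the nephron structures, 0.61 (SE 0.19, adjusted p = 0.024), was lost without renal vesicle replicate 1, or s-shaped body replicate 1 or 2 (log2 difference 0.46 to 0.55, adjusted p = 0.084 to 0.11). The step was larger, 1.3 (adjusted p = 0.00026), by a second probe set.

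Slc38a5 (SNAT5), a glutamine and glycine carrier, ran the other way. It read 139, 137 and 223 in s-shaped bodies, 8.09, 15.9 and 39.9 in the collecting duct and 16.2, 24.2 and 154 in the renal vesicle, where replicate 3 was at the s-shaped body level and the others were dim. The s-shaped body exceeded the collecting duct 4.23-fold, 2.08 (SE 0.48, adjusted p = 0.0048). Against the renal vesicle the difference of 1.26 (SE 0.48, adjusted p = 0.057) fell short of the threshold and became a change without renal vesicle replicate 3, or collecting duct replicate 3 (log2 difference 1.26 to 1.92, adjusted p = 0.0012 to 0.048). Renal vesicle replicate 3 was also the brightest of its group for Slc1a1, a glutamate carrier, at 97.4, 147 and 383, and its podocyte marker sum was the highest of the group.

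The light chain Slc7a5 and its heavy chain Slc3a2 were highest in different structures. Slc7a5 (LAT1), the light chain that brings large neutral amino acids such as leucine into growing cells, read 409, 318 and 379 in the renal vesicle, 165, 247 and 142 in the s-shaped body and 79.8, 46.1 and 176 in the collecting duct. The renal vesicle stood above both others without overlap, 1.89 (SE 0.33, adjusted p = 0.00088) against the collecting duct, and the s-shaped body differed from the renal vesicle by -1.04 (SE 0.33, adjusted p = 0.026), lost without renal vesicle replicate 1 or 3, or s-shaped body replicate 1 or 3 (log2 difference -1.02 to -0.88, adjusted p = 0.059 to 0.1). Slc3a2 (CD98), which serves several light chains, was instead highest in the s-shaped body, at 1059, 1480.4 and 1423 against 803, 872 and 975 in the renal vesicle and 870.0, 875 and 900.2 in the collecting duct. The heavy chain differed by 0.58 (SE 0.18, adjusted p = 0.023) from the collecting duct, lost without s-shaped body replicate 2 or 3, or collecting duct replicate 1 or 2 (log2 difference 0.50 to 0.57, adjusted p = 0.056 to 0.099), and by 0.53 (SE 0.18, adjusted p = 0.033) from the renal vesicle, lost without renal vesicle replicate 1 or 2, or s-shaped body replicate 2 or 3 (log2 difference 0.45 to 0.52, adjusted p = 0.093 to 0.13). Another light chain, Slc7a6, named after its values were seen, read 1424, 1619 and 1484 in the renal vesicle and 838, 1015 and 928 in the s-shaped body, a difference of -0.70 (SE 0.16, adjusted p = 0.004). By its other probe set it was -0.42 (adjusted p = 0.094), no change. Neither result was checked by leaving out arrays.

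Slc7a9 is the light chain that reclaims cystine and basic amino acids at the proximal tubule brush border, and its loss causes cystinuria. It read 417, 457 and 507 in s-shaped bodies, 53.5, 72 and 92.6 in the collecting duct and 53.9, 52.6 and 186 in the renal vesicle, where replicate 3 was again brighter than its fellows. No other array overlapped the s-shaped body, which was 5.12-fold higher than the collecting duct, 2.36 (SE 0.32, adjusted p = 0.00011), and 4.0-fold higher than the renal vesicle, 2.0 (SE 0.32, adjusted p = 0.00047). The GATA letters of its promoter are shown above. Its heavy chain Slc3a1 did not pass the intensity rule and ranged from 80.6 to 211.6, with the highest values in s-shaped body replicates 1 and 3. Slc7a3, a cationic amino acid carrier that passed through the renal vesicle alone, read 233, 247 and 148 there, 99.9, 129.5 and 133 in the s-shaped body and 115, 120.3 and 101 in the collecting duct.

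Slc1a4 (ASCT1), which exchanges serine, alanine and other small neutral amino acids, was lowest in the s-shaped body, at 178, 94.8 and 212 against 391, 405 and 478 in the renal vesicle and 232, 253 and 354 in the collecting duct. The 3 groups did not overlap. Its s-shaped body level was 2.65-fold lower than the renal vesicle, -1.41 (SE 0.24, adjusted p = 0.00078), and its difference from the collecting duct, -0.76 (SE 0.24, adjusted p = 0.031), was lost without s-shaped body replicate 2, or collecting duct replicate 2 or 3 (log2 difference -0.83 to -0.49, adjusted p = 0.053 to 0.14).

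Zinc carriers were almost all measured, with 17 of 18 genes on the array tested. The Slc30 family moves zinc out of the cytosol and the Slc39 family into it. Slc39a4 entered through the collecting duct alone. Of the other 16, 3 were higher and 3 lower for renal vesicle against collecting duct, where all genes chosen the same way gave 15.3% and 15.2%. For s-shaped body against collecting duct 3 were higher and 2 lower (15.5% and 15.2%), and for s-shaped body against renal vesicle 1 and 2 (17.3% and 17.6%). An importer at the surface and one of the endoplasmic reticulum were lower in the collecting duct than in the renal vesicle. Slc39a6 (ZIP6), a surface importer known from epithelial-mesenchymal transition, read 4763, 4898 and 3447 in the renal vesicle, 2850.3, 2354 and 2019 in the s-shaped body and 2047, 1731 and 1312 in the collecting duct. The renal vesicle stood above both, 1.3 (SE 0.19, adjusted p = 0.00028) against the collecting duct, and the s-shaped body was lower, -0.79 (SE 0.19, adjusted p = 0.007). A second probe set of this gene gave 0.10 and -0.22 for these differences, neither a change. Slc39a7 (ZIP7), which releases zinc from the endoplasmic reticulum, read 1082, 1234 and 1133 in the collecting duct, 2489, 2273 and 2883 in the renal vesicle and 1890.0, 1699.5 and 1979 in the s-shaped body. The collecting duct was lowest without overlap, with differences of 1.1 (SE 0.16, adjusted p = 0.00022) for the renal vesicle and 0.71 (SE 0.16, adjusted p = 0.0041) for the s-shaped body.

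**Figure D3:**
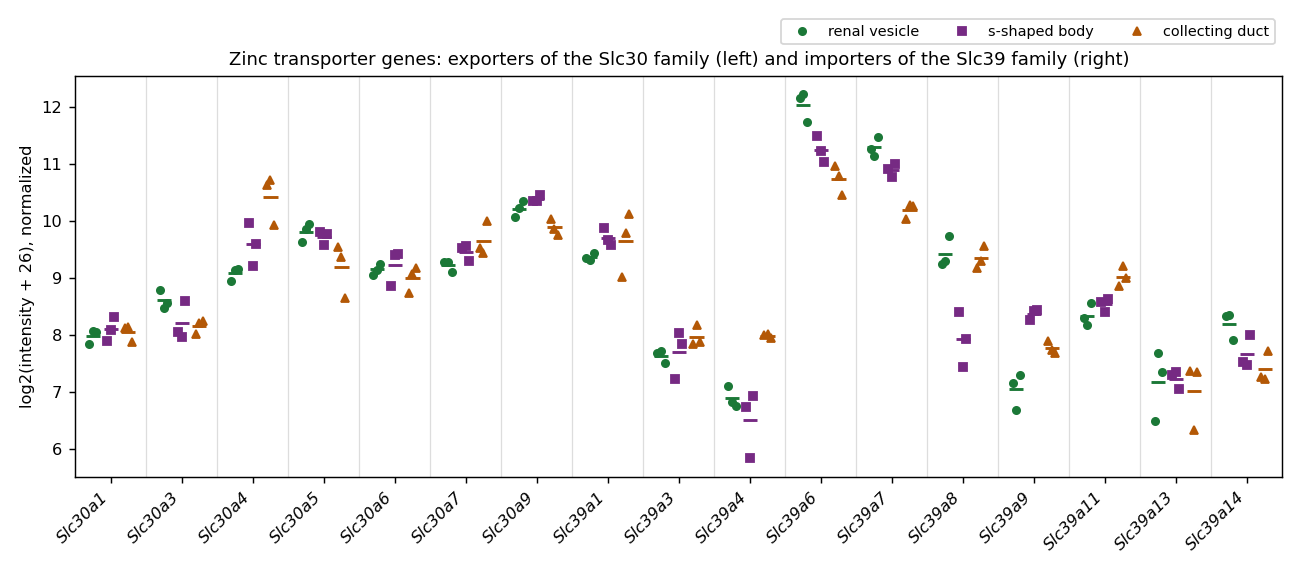
Normalized log2(intensity + 26) of the 17 zinc carrier genes, exporters of the Slc30 family on the left and importers of the Slc39 family on the right, one point per array and a line at each mean of 3 arrays. Slc39a8 drops in the s-shaped body, Slc39a9 in the renal vesicle, and Slc30a4 and Slc39a4 are highest in the collecting duct.

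Slc39a8 (ZIP8), which imports zinc and manganese, was lowest in the s-shaped body, at 319, 151 and 229 against 568, 594 and 795 in the renal vesicle and 575, 605 and 698 in the collecting duct. The other structures overlapped each other and stayed above the s-shaped body, -1.42 (SE 0.24, adjusted p = 0.00058) and -1.5 (SE 0.24, adjusted p = 0.00044) for the collecting duct and the renal vesicle. Slc39a9 (ZIP9) was the reverse, at 287, 327 and 333 in s-shaped bodies, 215, 195 and 193 in the collecting duct and 101, 72.4 and 123 in the renal vesicle. The s-shaped body exceeded the renal vesicle by 1.32 (SE 0.20, adjusted p = 0.00026), although a second probe set gave 0.33, and 0.10 and -0.23 for the s-shaped body and the renal vesicle against the collecting duct, none of them a change. Its difference of the s-shaped body from the collecting duct, 0.59 (SE 0.20, adjusted p = 0.035), was lost without s-shaped body replicate 1, 2 or 3, or collecting duct replicate 2 or 3 (log2 difference 0.55 to 0.65, adjusted p = 0.056 to 0.1), and that of the renal vesicle, -0.73 (SE 0.20, adjusted p = 0.014), without renal vesicle replicate 2 (log2 difference -0.55, adjusted p = 0.064).

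Slc30a4 (ZnT4), which loads zinc into vesicles and milk, read 1622, 1670.0 and 904 in the collecting duct, 447, 528 and 524 in the renal vesicle and 983, 574 and 763 in the s-shaped body. The renal vesicle was lower without overlap, -1.35 (SE 0.24, adjusted p = 0.0012), whereas 1 s-shaped body array exceeded the lowest collecting duct array. That second difference, -0.84 (SE 0.24, adjusted p = 0.019), was lost without s-shaped body replicate 2 or 3, or collecting duct replicate 1 or 2 (log2 difference -0.85 to -0.65, adjusted p = 0.052 to 0.093). Slc39a4 (ZIP4), the intestinal zinc importer, read 229.8, 239 and 231 in the collecting duct, 96.4, 82.8 and 75.7 in the renal vesicle and 80.4, 31.4 and 104 in the s-shaped body, and passed the rule through the collecting duct alone. Slc39a14 (ZIP14), which also carries iron, read 273, 289 and 201 in the renal vesicle and 124, 131 and 198 in the collecting duct. Its difference of 0.79 (SE 0.22, adjusted p = 0.017) was lost without renal vesicle replicate 1 or 2, or collecting duct replicate 2 (log2 difference 0.71 to 0.72, adjusted p = 0.064 to 0.066).

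Vitamin and choline carriers counted 9 tested genes out of 16 on the array, of which Slc44a3 and Slc44a4 entered through the collecting duct alone. Of the other 7, the renal vesicle had 4 below and 1 above the collecting duct, where 15.2% of all genes chosen the same way were lower and 15.3% higher. Their median log2 difference was -0.74, against 0.01 over all genes tested. In the s-shaped body 3 were lower and 1 higher than in the collecting duct (15.2% and 15.5%), with a median of -0.28 against -0.03. Slc44a2, a choline transporter-like protein of plasma and mitochondrial membranes, read 612, 712 and 490.0 in the renal vesicle, 3726, 4317 and 3761 in the s-shaped body and 3466, 4712 and 4723 in the collecting duct. The renal vesicle was far below both others, which overlapped. It was 6.74-fold lower than the collecting duct, -2.75 (SE 0.18, adjusted p = 4e-07), and the s-shaped body was 6.25-fold above it, 2.64 (SE 0.18, adjusted p = 7.3e-07). The probe set used is of a kind that may cross-hybridize, and a second probe set gave -2.08 and 1.34, both changes.

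Slc44a1, the ubiquitous choline transporter, read 3453, 4214 and 2596 in the collecting duct, 1569.7, 2068 and 1854 in the renal vesicle and 1212, 919.6 and 1173 in the s-shaped body. No group overlapped another, with -0.91 (SE 0.20, adjusted p = 0.0045) for the renal vesicle and -1.63 (SE 0.20, adjusted p = 4.5e-05) for the s-shaped body against the collecting duct. Its other probe set gave a larger difference for the renal vesicle, -1.74 (adjusted p = 1.3e-05). Between the nephron structures its probe sets disagreed, since the one used gave -0.72 (SE 0.20, adjusted p = 0.015) and the other 0.55 (adjusted p = 0.026), both changes and opposite. The former call was also lost without renal vesicle replicate 2, or s-shaped body replicate 2 (log2 difference -0.63 to -0.59, adjusted p = 0.069 to 0.07). Slc44a3 and Slc44a4, which entered through the collecting duct alone, read 172, 179 and 196 and 143, 165 and 203 there. In the nephron Slc44a3 lay between 5.35 and 47.5 and Slc44a4 between 15.9 and 80.2, without overlap.

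Of the vitamin carriers, Slc19a2, a thiamine importer, read 1239.8, 967 and 1090.2 in the collecting duct, 656, 649 and 549.8 in the renal vesicle and 296, 331 and 362 in the s-shaped body. All 3 groups were apart, in that order, with -0.75 (SE 0.16, adjusted p = 0.0041) for the renal vesicle and -1.69 (SE 0.16, adjusted p = 5.2e-06) for the s-shaped body against the collecting duct, and -0.94 (SE 0.16, adjusted p = 0.00082) between the nephron structures. The reduced folate carrier Slc19a1 read 669, 568 and 701 in s-shaped bodies, 1175, 1068 and 1518 in the renal vesicle and 882, 847 and 1204 in the collecting duct. Its s-shaped body arrays were lowest, -0.96 (SE 0.21, adjusted p = 0.0033) against the renal vesicle, where a second probe set gave -0.41 (adjusted p = 0.12), no change. Its difference from the collecting duct, -0.59 (SE 0.21, adjusted p = 0.046), was lost without renal vesicle replicate 1 or 2, or s-shaped body replicate 1, 2 or 3, or collecting duct replicate 2 or 3 (log2 difference -0.69 to -0.39, adjusted p = 0.054 to 0.16).

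Slc23a2 (SVCT2), the ascorbate importer, was lowest in the collecting duct, at 226, 235 and 253 against 335, 317 and 310.2 in the renal vesicle and 375, 350.4 and 373 in the s-shaped body. The nephron arrays all exceeded the collecting duct arrays, 0.56 (SE 0.15, adjusted p = 0.012) for the s-shaped body and 0.49 (SE 0.15, adjusted p = 0.026) for the renal vesicle, the latter lost without renal vesicle replicate 1 or 2, or collecting duct replicate 1 or 2 (log2 difference 0.45 to 0.51, adjusted p = 0.055 to 0.089). With renal vesicle replicate 3 and collecting duct replicate 2 both omitted, neither was a change.

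Both tested nucleoside and nucleobase carriers, out of 6 on the array, changed in the s-shaped body against each other structure. Of all genes, 32.8% changed against the collecting duct and 36.3% against the renal vesicle. Slc29a3 (ENT3), a lysosomal nucleoside carrier, read 166, 167 and 197 in s-shaped bodies, 518, 424 and 427 in the renal vesicle and 359.6, 337 and 371 in the collecting duct. All s-shaped body arrays were lowest, -0.94 (SE 0.16, adjusted p = 6e-04) and -1.34 (SE 0.16, adjusted p = 4.9e-05) against the collecting duct and the renal vesicle. Slc43a3, a purine nucleobase carrier, was the opposite, at 605, 589 and 707 in s-shaped bodies, 157, 228 and 223 in the renal vesicle and 179.9, 177 and 177 in the collecting duct. The s-shaped body was well above every other array, 1.71 (SE 0.17, adjusted p = 7.3e-06) and 1.42 (SE 0.17, adjusted p = 5.5e-05), and its arrays also held the high endothelial sum, whose part was not tested.

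Of 3 tested neurotransmitter and osmolyte carriers, out of 13 on the array, and 3 calcium exchangers, out of 6, the following changed. Slc6a8, the creatine importer, read 409, 484 and 476 in s-shaped bodies, 549, 700.3 and 847 in the renal vesicle and 719, 963 and 899 in the collecting duct. The s-shaped body was lowest, -0.90 (SE 0.20, adjusted p = 0.0037) against the collecting duct and -0.65 (SE 0.20, adjusted p = 0.023) against the renal vesicle, the latter lost without renal vesicle replicate 2 or 3, or s-shaped body replicate 1 or 3 (log2 difference -0.68 to -0.50, adjusted p = 0.051 to 0.082). Slc8a1 (NCX1), the sodium-calcium exchanger that extrudes calcium, read 396, 362 and 397 in the collecting duct, 70.1, 104 and 30.9 in the renal vesicle and 164, 159 and 114 in the s-shaped body. The collecting duct was well above both, -2.07 (SE 0.28, adjusted p = 0.00013) for the renal vesicle and -1.3 (SE 0.28, adjusted p = 0.0032) for the s-shaped body. The difference between the nephron structures, 0.77 (SE 0.28, adjusted p = 0.047), was lost without renal vesicle replicate 1 or 3, or s-shaped body replicate 1 or 2, or collecting duct replicate 1 or 2 (log2 difference 0.43 to 0.86, adjusted p = 0.056 to 0.16). Slc24a3, a potassium-dependent exchanger of the same ions, was instead highest in the s-shaped body, at 349, 277 and 302 against 150.4, 229 and 152 in the renal vesicle and 125, 175 and 192 in the collecting duct. It differed from the collecting duct by 0.82 (SE 0.20, adjusted p = 0.0074) and from the renal vesicle by 0.60 (SE 0.20, adjusted p = 0.036), the latter lost without renal vesicle replicate 1 or 3, or s-shaped body replicate 1, 2 or 3 (log2 difference 0.50 to 0.67, adjusted p = 0.055 to 0.12).

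Slc66a2, a little-studied gene with a lysosomal relative, was lowest in the renal vesicle, at 316, 269.7 and 205 against 965, 1025 and 735 in the s-shaped body and 661, 692 and 923 in the collecting duct. The renal vesicle arrays were below all others, with a difference of -1.36 (SE 0.22, adjusted p = 0.00052) from the collecting duct, and the s-shaped body exceeded them by 1.6 (SE 0.22, adjusted p = 0.00014). Other probe sets of the gene gave -0.43 and -0.34 for the first difference, neither a change, and 0.73, a change, and -0.18, no change, for the second.

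Of the 4 tested phosphate carriers, out of 7 on the array, 0 changed by limma in any comparison with all arrays, although 1 had an unadjusted p under 0.05 between the renal vesicle and the collecting duct and 1 between the nephron structures. Slc20a1 and Slc20a2, the widely expressed sodium-phosphate importers, were above their array medians throughout, with Slc20a1 at 3501, 3310.2 and 2441, 2535, 2150.0 and 2433 and 2534, 2290.1 and 2482 in the renal vesicle, s-shaped body and collecting duct. Between the nephron structures Slc20a1 differed by -0.32 (SE 0.16, adjusted p = 0.15), which became a change without renal vesicle replicate 3 (log2 difference -0.47, adjusted p = 0.035) and with median centring (-0.51, adjusted p = 0.042). Slc20a2 differed by -0.41 (SE 0.15, adjusted p = 0.057), a change without collecting duct replicate 3 (log2 difference -0.41, adjusted p = 0.035) and with median centring (-0.50, adjusted p = 0.027). Slc34a1 (NaPi-IIa), the brush border carrier of the proximal tubule, was dim, at 91.9, 139 and 129 in the renal vesicle, 234, 76.2 and 86.6 in the s-shaped body and 66.3, 62.6 and 80.3 in the collecting duct. Replicate 1 was the highest of the s-shaped body arrays. The renal vesicle lay above the collecting duct without overlap but also without a change, 0.79 (SE 0.32, adjusted p = 0.08), which became a change without s-shaped body replicate 1 (log2 difference 0.78, adjusted p = 0.018).

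Among 3 tested fatty acid carriers, out of 6 on the array, s-shaped body replicate 1 stood out again. Slc27a2, an acyl-CoA synthetase of the proximal tubule and liver, read 105, 143 and 124 in the renal vesicle, 168, 6.01 and 13.9 in the s-shaped body and 29.3, 74.1 and 22.6 in the collecting duct. The renal vesicle exceeded the collecting duct without overlap and short of a change, 1.36 (SE 0.55, adjusted p = 0.079), and became a change without s-shaped body replicate 1 (log2 difference 1.36, adjusted p = 0.0065). The s-shaped body then lay below the renal vesicle by a change of -2.18 (adjusted p = 0.00081), against -1.38 (adjusted p = 0.069) with all arrays. Slc27a4, which serves fatty acid uptake, read 166, 199 and 149 in the renal vesicle and 270.1, 322 and 453 in the collecting duct, a difference of -0.79 (SE 0.23, adjusted p = 0.021) that was lost without renal vesicle replicate 1 or 3, or collecting duct replicate 3 (log2 difference -0.79 to -0.59, adjusted p = 0.053 to 0.067).

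**Figure D4:**
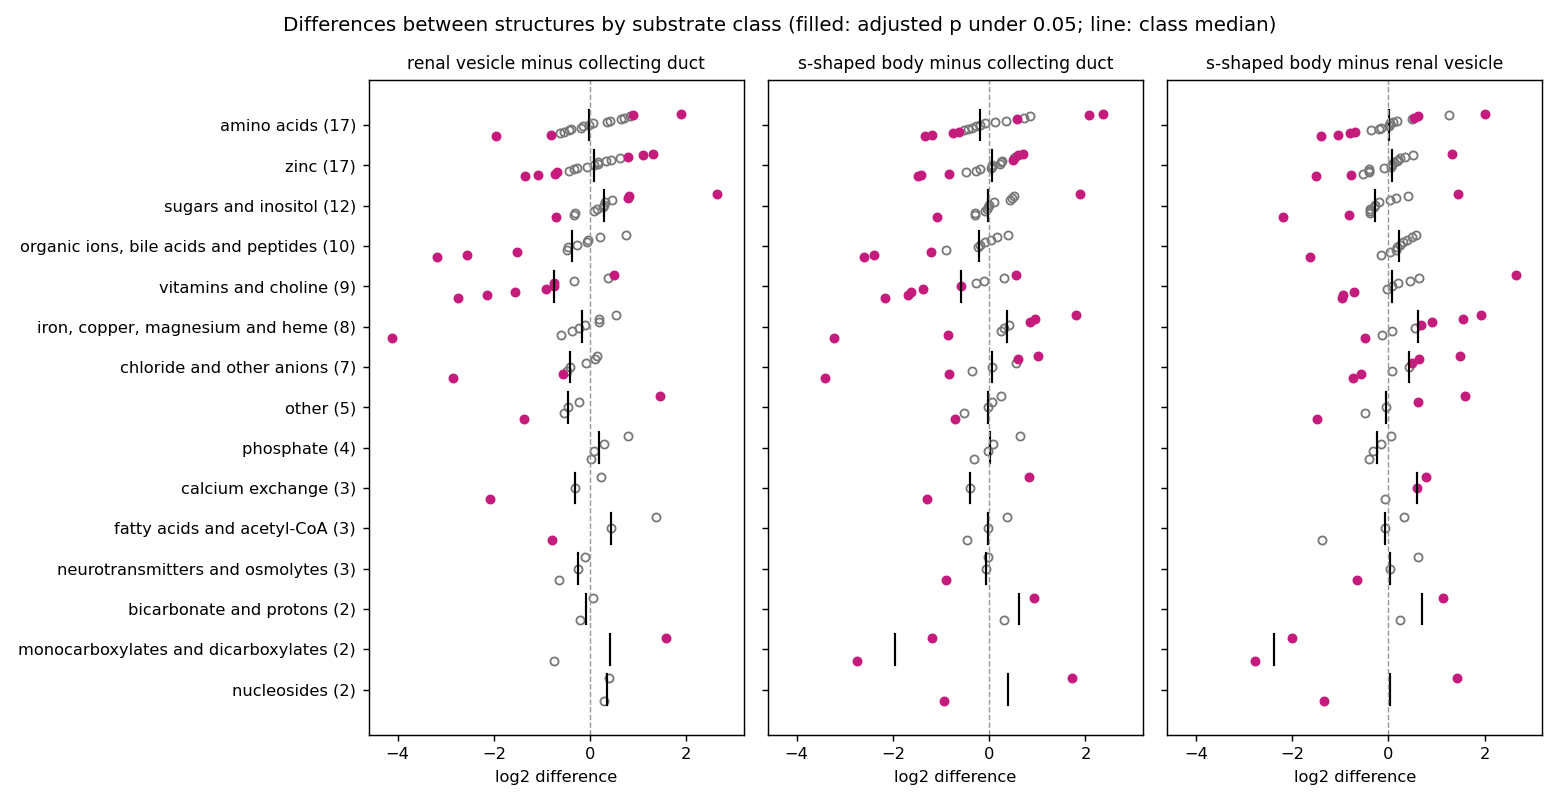
Log2 differences of all 104 members by substrate class in the 3 comparisons, one point per gene, with filled points for changes at an adjusted p under 0.05. Amino acid and zinc carriers hold changes on both sides of 0 in each comparison.

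Proteins that help or drive transport were described from a list of 32 genes, 23 of them tested. Their changes were not checked gene by gene by leaving out arrays. In the renal vesicle 7 were higher and 7 lower than in the collecting duct, where all genes gave 15.6% and 15.9%. In the s-shaped body 9 were higher and 7 lower than in the collecting duct, where all genes gave 16.9% and 15.9%. Between the s-shaped body and the renal vesicle 9 were higher and 5 lower, where all genes gave 18.5% and 17.8%. The sodium pump subunit Atp1b1 read 6987, 9397 and 10144 in the collecting duct, 2124, 2279 and 3174 in the renal vesicle and 4266, 3491 and 3182 in the s-shaped body, while its relative Atp1b3 read 1397, 1083 and 1057, 2049, 1949.6 and 1535 and 2686, 2669 and 2294 in the same order. The difference of the renal vesicle from the collecting duct was -1.87 (SE 0.18, adjusted p = 6.9e-06) for the first and 0.63 (SE 0.16, adjusted p = 0.011) for the second. Slc9a3r2, a scaffold that tethers carriers and podocalyxin to the cytoskeleton and whose symbol falls outside the member rule, read 3047, 3899 and 3858 in s-shaped bodies, 173, 236 and 532 in the renal vesicle and 146, 159 and 208 in the collecting duct. It was far higher in the s-shaped body than in the collecting duct, 4.27 (SE 0.30, adjusted p = 3.5e-07), in the arrays that also had the podocyte sum of 42039 to 50262. Slc9a3r1, its apical relative, was lowest in the renal vesicle, at 815, 911 and 1431 against 2529.8, 3304 and 2608 in the s-shaped body and 1452, 2792 and 3187 in the collecting duct, with a difference of -1.14 (SE 0.30, adjusted p = 0.012) from the latter.

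The regulators and enzymes around the carriers also differed. Sgk1, a kinase that stimulates many carriers, read 3878, 2826 and 2329 in the s-shaped body against 224, 329.7 and 167 in the renal vesicle and 101, 92.6 and 174 in the collecting duct, a difference of 4.44 (SE 0.26, adjusted p = 1e-07) from the collecting duct. The carbonic anhydrases that feed bicarbonate carriers split, with Car4 at 357, 372 and 409 in the renal vesicle, 53.9, 49.8 and 50.9 in the s-shaped body and 16.9, 23.5 and 42.2 in the collecting duct. Its renal vesicle level was higher than that of the collecting duct by 3.08 (SE 0.22, adjusted p = 6.6e-07). Car2 was highest in the s-shaped body instead, at 1053, 965 and 1019.6, against 416, 467 and 346 in the renal vesicle and 424, 495 and 176 in the collecting duct. Pdzk1ip1, a small membrane protein that binds the brush border scaffold Pdzk1, read 3939, 4368 and 5276 in the collecting duct, 273, 494 and 216 in the renal vesicle and 510.1, 376 and 324 in s-shaped bodies, -3.7 (SE 0.26, adjusted p = 6.5e-07) for the renal vesicle. Of 30 listed channels, pumps and carriers of other families, 15 were tested. The renal vesicle had 2 of them above and 6 below the collecting duct, where all genes gave 15.6% and 15.9%.

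Of the 98 matching genes that did not pass the intensity rule, 73 exceeded the median of their own array in no array at all. They held 18 of the 28 organic ion and peptide carriers, 16 of the 33 amino acid carriers and 10 of the 17 anion carriers, but 1 of the 18 zinc carriers. Not passing the rule says that a probe set was dim on these arrays and does not show that the transcript was absent. Among the 21 members with several passing probe sets, 6 further probe sets gave the same change as the one used between the renal vesicle and the collecting duct, 16 gave none where it gave none, 4 lacked its change and 2 gave one that it lacked. For the s-shaped body against the collecting duct these counts were 8, 17, 1 and 2. Between the nephron structures they were 7, 12, 6 and 2, and 1 further probe set gave a change in the opposite direction.

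The remaining changes were single and modest, and were not checked by leaving out arrays. They were named after their values were seen and are Slc6a17 (-0.63 (SE 0.18, adjusted p = 0.016) in the s-shaped body against the collecting duct), Slc30a9 (0.49 (SE 0.16, adjusted p = 0.029) in the same comparison), Slc39a11 (-0.68 (SE 0.17, adjusted p = 0.01) in the renal vesicle against the collecting duct), Slc52a3 (-0.74 (SE 0.26, adjusted p = 0.049) in that comparison) and Slc66a1 (0.61 (SE 0.21, adjusted p = 0.042) in the s-shaped body against the renal vesicle). The 45 members without a change in any comparison with all arrays held 8 zinc carriers, 7 sugar carriers, 7 amino acid carriers and 6 organic ion carriers. Among them were the exporter Slc30a1, the importers Slc39a1, Slc39a3 and Slc39a13, the glutamine importer Slc1a5, the glucose carriers Slc2a4 and Slc2a8, the taurine importer Slc6a6 and the carnitine importer Slc22a5. Slc6a6 became a change for the renal vesicle against the collecting duct without collecting duct replicate 3 (log2 difference -0.91, adjusted p = 0.039). It also became one between the nephron structures without s-shaped body replicate 3 (log2 difference 0.94, adjusted p = 0.027). Slc33a1, also among the 45, changed against the collecting duct without collecting duct replicate 1. Its difference was then 0.61 (adjusted p = 0.028) for the renal vesicle and 0.54 (adjusted p = 0.047) for the s-shaped body. With all arrays, the log2 differences of the 45 members ran from -0.65 to 1.36 between the renal vesicle and the collecting duct. They ran from -0.53 to 0.72 for the s-shaped body against the same reference, and from -1.38 to 0.63 between the nephron structures.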

How the data were processed

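Transcript levels were read on Affymetrix MOE430A arrays, with 3 biological replicates per structure, per the labels. The deposited values are intensity on a linear scale, 1 per probe set and array, made with GCOS per the submitters' processing notes, whose version and algorithm are not given in the sources used here. The mean of each array without its top and bottom 2% was 500.2 to 500.3 and array medians ran from 112.3 to 144.8. Arrays give no counts, so their number limits precision.

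A pseudocount of 26, the 20th percentile, was added before log2 and quantile normalization. Symbols came from a platform annotation. The two-sided test was that of limma 3.58.1, run in R 4.3.3 with lmFit and a trended eBayes (6 residual degrees of freedom, no covariates), and adjusted by Benjamini-Hochberg over all 7998 genes. The procedure was tested on simulated data. Named were, per comparison, the 12 largest changes in each direction without overlap, up to 3 genes of each substrate class by the F test, and a fixed set of genes. The members and lists were chosen with earlier results of these data known. Promoters are from RefSeq (GRCm38.p6), matched by symbol. Alternatives were another pseudocount, scaling, filter, probe set or variance model, array weights, stricter thresholds, a replicate block, and leaving out each array.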

Additional observations from a re-analysis of the deposited data

How the results depend on the processing

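The number of members with a change stayed within 1.5 times of the main count under other pseudocounts, scalings, filters, probe set choices and variance models, and under array weights estimated gene by gene. Stricter rules gave fewer by construction: with a minimum of 2-fold 19 members changed for renal vesicle against collecting duct, 23 for s-shaped body against collecting duct and 19 for s-shaped body against renal vesicle (15.2%, 17.8% and 17.3% of all genes), and at an adjusted p under 0.01 24, 29 and 24 did (19.5%, 21.8% and 24.1% of all genes). Leaving out each array in turn gave 28 to 36, 34 to 45 and 28 to 45 changes in these comparisons, 48 to 61 by the F test and 27 to 38 members highest in 1 structure. With renal vesicle replicate 3 and collecting duct replicate 2 both omitted, an alternative chosen after seeing the data, the counts were 29, 34 and 34, with 49 by the F test.

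With the replicate number as a block the counts were 35, 44 and 40, with 56 by the F test and 36 members highest in 1 structure. Deviations of same-numbered arrays correlated at -0.0341 to 0.161, with 5 of 9 pairs over 0.1, among them all pairs of replicate 3. In 10 of 18 cases an array correlated best with its own number in another structure. Since not every pair passed 0.1, the numbers were not used as a pairing.

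Of 186 results of 62 named genes, 106 were changes, of which 75 were kept under every refit made and 31 were lost under at least 1. A filter of 6 arrays left 141 of these results to refit. The stricter thresholds are not among the refits, and 61 of the 106 changes were at least 2-fold and 75 had an adjusted p under 0.01. Of the other 80 results, 28 became changes under at least 1 refit. Median centring ended 5 changes, those of Slc2a1 and Slc12a2 for renal vesicle against collecting duct and of Slc12a2, Slc41a3 and Slc3a2 between the nephron structures, and testing without an intensity filter, which adds genes, ended 10. One result reversed: with the probe set of the highest SD, Slc44a1 was higher in the s-shaped body than in the renal vesicle by 0.55 (adjusted p = 0.028), and the cause was not tested. Values near the pseudocount limit what can be said of genes dim in 1 structure, whose folds are understated.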
